A study of Homo sapiens with 29 samples.

Results

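NGFR, VGF, HPCAL4, TENM3 and SYN1 are 5 genes best known from nerve cells that had higher RNA after crotonate in HCT116, a human colorectal carcinoma line. They were picked by hand from the 38148 genes of an RNA table because they rose with crotonate, with no numeric threshold, so their crotonate changes are given as a description and support nothing. All 5 passed the filter on low levels that left 17973 genes for testing. In a second table, of chromatin regions carrying crotonyl-lysine, 8 of 49916 regions were listed under one of the symbols.

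The study crossed an siRNA with a short-chain fatty acid. Cells received either 35 nM siRNA against DAXX, a chaperone of histone H3.3, or 25 nM non-targeting siRNA, so the siRNA arms differed in dose as well as in target. Each arm was grown with 10 mM crotonate or without it, for 48 h by the sample protocol and for 18 h by the series text. The 4 RNA groups were DAXX siRNA with crotonate, DAXX siRNA without crotonate, non-targeting siRNA with crotonate and non-targeting siRNA without crotonate, with 4 libraries each. Chromatin immunoprecipitation (ChIP) with a pan antibody against crotonyl-lysine (Kcr) gave 12 libraries of the same 4 groups, 2 for each siRNA with crotonate and 4 for each without, and 1 input library, labelled as DAXX siRNA cells, showed the background. All groups share the parental line, which the labels place as colon-derived. The labels do not say whether replicates were separate cultures, and the spread behind each p-value may therefore be technical.

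Neurotrophins are growth factors that keep nerve cells alive and shape their axons. NGFR is their shared low-affinity receptor, a member of the tumour necrosis factor receptor family that signals alone or beside receptor kinases. VGF is a secreted granin-like prohormone induced by neurotrophins, HPCAL4 a calcium-binding sensor of the visinin-like family, TENM3 a transmembrane teneurin that guides synaptic partner choice, and SYN1 a phosphoprotein that tethers synaptic vesicles. In cells outside the nervous system many such genes are held down by REST, a zinc finger repressor that binds the RE1 element and recruits histone deacetylases. Crotonate enters cells and can be turned into crotonyl-CoA, the donor for crotonylation of histone lysines.

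RNA depth was 35.0 to 55.1 M reads on genes per library (M, 1e+06), and ChIP depth 2.23 to 3.64 M reads in regions, with 1.72 M in the input. RNA levels are RPM, reads scaled to the library's total and not divided by gene length, so levels are compared between samples and never between genes. DAXX transcript, which checks the labels, lay at 13.1 to 24.2 RPM in DAXX siRNA libraries with crotonate and 22.9 to 27.4 RPM in those without, against 95.2 to 102 RPM in non-targeting libraries with crotonate and 101 to 105 RPM in those without. Of 14 colon epithelial markers, 11 were expressed enough for a test, with KRT8, a simple-epithelium keratin, between 2192 and 2870.2 RPM, and 1, CDX1, had no read. Crotonate raised 2352 genes and lowered 420 with non-targeting siRNA, and raised 2338 and lowered 433 with DAXX siRNA (limma, Benjamini-Hochberg adjusted p under 0.05, which is what "called" means here). That balance depended on scaling. Higher genes made up 84.8% of the calls with non-targeting siRNA on the deposited scale, but 46.2% after centring each library on its median and 58.5% after quantile scaling; with DAXX siRNA the shares were 84.4%, 50.5% and 63.0%. Median centring lowered every crotonate change by 0.13 on the log2 scale with non-targeting siRNA and by 0.12 with DAXX siRNA.

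The start regions show what sequence the genes share. RefSeq (GRCh38.p14) promoter windows were at hand for VGF, HPCAL4, SYN1 and TENM3, the last with a pair of annotated starts. SYN1 and VGF each held a stretch like RE1, the REST element. The letters searched were TTCAGCAC, then any 3 bases, then GGACAG, on both strands, and they were settled after these windows had been read. The VGF stretch ran on the strand opposite to the gene and crossed its start, from base -6 to base 11, while the SYN1 stretch ran along the gene from base -233 to base -217 before its start. Both are shown 5′ to 3′ in the same direction, with the searched letters in capitals.
VGF, chr7:101165559-101165579, plus strand: TTCAGCACgctGGACAGcgcc
SYN1, chrX:47620070-47620090, minus strand: TTCAGCACcgcGGACAGtgcc
These stretches were identical at 17 of 21 bases, a count that includes the searched letters, which any match shares by construction. Of 35116 RefSeq promoter windows of 300 bases, 6 held the letters (0.0171%), VGF and SYN1, from which the letters were taken, among them. Among known REST target genes other than VGF and SYN1, 1 of the 20 with a window held them.

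SYN1 and VGF also shared the palindrome TGACGTCA, the full cyclic AMP response element, which 649 of the 35116 windows held (1.85%). It lay at bases -79 to -72 of VGF and -159 to -152 of SYN1. GC boxes, GGGCGG on either strand, were found before the starts of VGF, HPCAL4 and TENM3 and in 45% of all windows. The 250 bases before the start follow, with these motifs and the RE1-like letters in capitals, because their order along SYN1 and VGF can be read from them. A match is a description of letters, and binding was not measured.
VGF, chr7:101165570-101165819, minus strand: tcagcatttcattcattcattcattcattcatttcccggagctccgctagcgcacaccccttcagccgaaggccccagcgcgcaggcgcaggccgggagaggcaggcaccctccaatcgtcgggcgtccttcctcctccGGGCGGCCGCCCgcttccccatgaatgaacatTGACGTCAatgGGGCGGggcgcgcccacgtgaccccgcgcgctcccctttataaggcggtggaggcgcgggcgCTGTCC
SYN1, chrX:47619858-47620107, minus strand: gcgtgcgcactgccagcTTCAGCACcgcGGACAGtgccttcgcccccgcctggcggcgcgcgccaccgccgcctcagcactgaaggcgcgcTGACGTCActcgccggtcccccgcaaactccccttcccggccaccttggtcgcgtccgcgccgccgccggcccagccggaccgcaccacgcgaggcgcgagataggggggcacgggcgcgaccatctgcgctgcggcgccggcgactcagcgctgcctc
The 250 bases before the HPCAL4 start and before the downstream TENM3 start are shown because, as described with the chromatin data, a Kcr region covered all of them. HPCAL4 had 1 GC box and neither other motif in its window.
HPCAL4, chr1:39691434-39691683, minus strand: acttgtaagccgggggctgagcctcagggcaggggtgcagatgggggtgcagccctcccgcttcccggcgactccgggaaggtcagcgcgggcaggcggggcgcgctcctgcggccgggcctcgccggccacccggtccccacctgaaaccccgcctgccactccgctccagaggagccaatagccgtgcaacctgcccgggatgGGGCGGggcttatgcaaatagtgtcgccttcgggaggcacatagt
TENM3, downstream start, chr4:182448766-182449015, plus strand: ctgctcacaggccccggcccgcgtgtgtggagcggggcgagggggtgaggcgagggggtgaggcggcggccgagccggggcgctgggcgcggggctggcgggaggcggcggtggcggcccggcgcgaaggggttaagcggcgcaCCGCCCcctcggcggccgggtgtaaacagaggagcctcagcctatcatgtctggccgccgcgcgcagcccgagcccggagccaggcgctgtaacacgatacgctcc

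NGFR, the neurotrophin receptor, is ENSG00000064300 at chromosome 17, 49495293 to 49515008, plus strand, GRCh38. With DAXX siRNA it read 37.6, 42.7, 37.2 and 49.1 RPM in the crotonate libraries, against 9.16, 11.8, 10.4 and 15.6 RPM without crotonate. With non-targeting siRNA it read 44.5, 52.3, 45.1 and 47.5 RPM with crotonate, against 12.6, 14.8, 11.7 and 11.4 RPM without. Every crotonate library lay above every library without crotonate, and the siRNA arms overlapped at each treatment. The log2 change with crotonate was 1.85 (SE 0.13) with DAXX siRNA, a 3.59-fold higher level, and 1.91 (SE 0.13), or 3.76-fold, with non-targeting siRNA. It rested on 1515 to 2606 reads per library with crotonate, against 361 to 658 without. The group means ran from 47.4 ± 3.54 RPM (non-targeting, crotonate) through 41.6 ± 5.56 (DAXX siRNA, crotonate) and 12.6 ± 1.54 (non-targeting, none) to 11.7 ± 2.80 RPM (DAXX siRNA, none; SD, n = 4 each). The siRNA arms, neighbours in that order, overlapped within each treatment.

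A pair of annotated genes lie on the opposite strand across NGFR, and the strand setting of the counting is not given in the sources used here, so reads of NGFR and theirs cannot be told apart. AC006487.1 averaged 3.46 ± 0.689 RPM with DAXX siRNA and crotonate and 1.12 ± 0.323 RPM without crotonate, and 4.04 ± 0.517 RPM with non-targeting siRNA and crotonate and 1.09 ± 0.116 RPM without. Its log2 change, 1.65 with DAXX siRNA and 1.89 with non-targeting siRNA, was close to that of NGFR. AC015656.1, which crosses the start, changed by 1.71 and 2.18 in the same order of arms.

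Among 14 neurotrophins and their receptors, 8 passed the filter, and 3 rose in each arm, NGFR among them, with none lower. The others were SORT1, the sortilin co-receptor for pro-neurotrophins, and LINGO1, a partner of NGFR in the Nogo receptor complex. SORT1 changed by 0.47 (SE 0.073) with DAXX siRNA and by 0.54 (SE 0.073) with non-targeting siRNA (adjusted p = 0.000155 and 3.05e-05, limma). LINGO1 changed by 0.69 (SE 0.11) and 0.46 (SE 0.11), with adjusted p = 0.000199 and 0.00696. The ligand BDNF, at 38.9 to 42.3 RPM with DAXX siRNA and crotonate and 45.0 to 52.1 RPM without crotonate, was not called (adjusted p = 0.0737 in that arm and 0.826 with non-targeting siRNA). The receptor kinases NTRK2 and NTRK3 did not pass the filter. Without NGFR, 2 of 7 rose in each arm, where 13.0% of all genes rose with DAXX siRNA and 13.1% with non-targeting siRNA. The median log2 change of these 7 genes was 0.32 and 0.46, against 0.061 and 0.074 for all genes tested. After median centring 3 of the 8, NGFR among them, rose in each arm and 1 fell with DAXX siRNA. Of all genes, 1515 rose and 1488 fell with DAXX siRNA and 1458 rose and 1701 fell with non-targeting siRNA.

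Of 22 adaptors and proteases of NGFR signalling, 20 were tested, and 3 rose in each arm, a share near that of all genes (13.0% and 13.1%). They were BCL2L11, the pro-apoptotic BIM, with 0.52 with DAXX siRNA and 0.46 with non-targeting siRNA, KIDINS220, a scaffold of neurotrophin receptors, with 0.39 and 0.37, and ZNF274, a zinc finger repressor, with 0.43 and 0.34, the smaller of which lost its call in 8 of 24 other settings. The list's median log2 change, 0.046 and 0.051, lay below that of all genes. With median centring 3 rose and 1 fell with DAXX siRNA, and 1 rose and 2 fell with non-targeting siRNA.

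**Figure D1:**
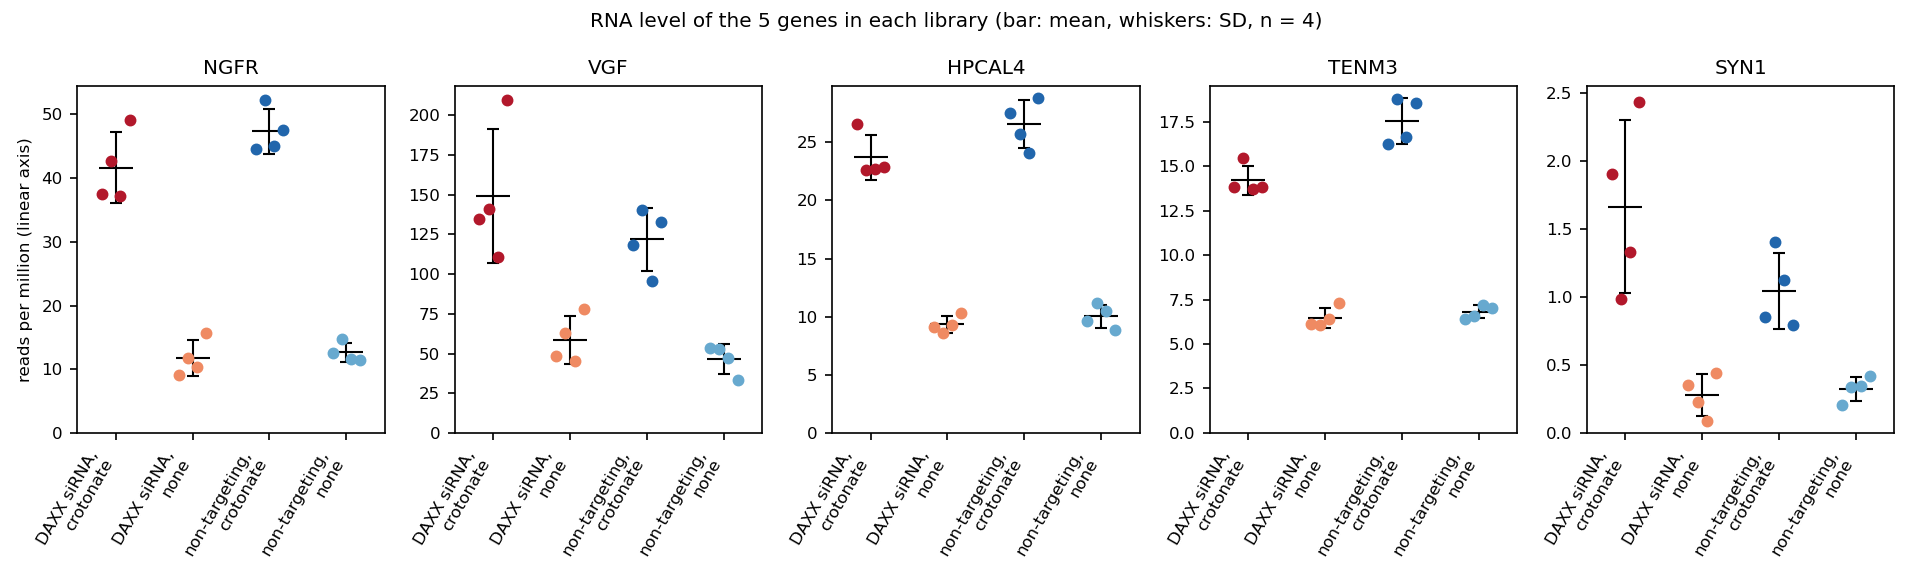
RNA level in RPM (linear axis from 0, a scale per gene) in each of the 16 libraries, by group from DAXX siRNA with crotonate at the left to non-targeting siRNA without crotonate at the right. Points are libraries, bars means and whiskers SD (n = 4). For all 5 genes the crotonate libraries lie above the others, and SYN1 stays under 2.5 RPM throughout (highest library 2.43 RPM).

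VGF, the secreted prohormone, is ENSG00000128564 at chromosome 7, 101162509 to 101165569, minus strand. In DAXX siRNA cells it read 135, 141, 111 and 209.7 RPM with crotonate, against 48.4, 63.1, 45.4 and 78.0 RPM without. In non-targeting cells it read 119, 140.4, 95.8 and 133 RPM with crotonate, against 53.4, 53.1, 47.2 and 33.4 RPM without. The crotonate libraries were all higher, and the fourth DAXX siRNA library was the highest of its group at both treatments. VGF changed by 1.34 (SE 0.19, 2.53-fold) with DAXX siRNA and by 1.39 (SE 0.19, 2.62-fold) with non-targeting siRNA. Means were 149 ± 42.4 RPM (DAXX siRNA, crotonate), 122 ± 19.7 (non-targeting, crotonate), 58.7 ± 15.03 (DAXX siRNA, none) and 46.8 ± 9.36 RPM (non-targeting, none; SD, n = 4), and within a treatment the arms differed by less than the SD of the DAXX siRNA group. The neighbour upstream, NAT16, changed by 1.06 (adjusted p = 0.00331) with DAXX siRNA and by 0.70 (adjusted p = 0.0475) with non-targeting siRNA, and AP1S1, downstream, was called in neither arm (adjusted p = 0.904 and 0.545, limma).

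Among 14 granins and prohormone-processing genes, 7 were tested and 4 rose in each arm, including VGF. Without VGF, chosen for its rise, 3 of 6 rose in each arm. Of all genes, 13.0% rose with DAXX siRNA and 13.1% with non-targeting siRNA. CPE, the carboxypeptidase that trims prohormones, changed by 0.51 (SE 0.093) with DAXX siRNA and 0.59 (SE 0.093) with non-targeting siRNA. FURIN, a proprotein convertase, changed by 0.47 and 0.34, and PAM, which amidates peptide ends, by 0.34 and 0.23. With non-targeting siRNA the FURIN call was lost in 11 of 24 other settings (adjusted p up to 0.186, limma) and the PAM call in 3 (up to 0.378). SCG2, another granin, was not called and had log2 changes of -0.27 and -0.17, and CHGA and CHGB did not pass the filter. Without VGF the median log2 change of the 6 other genes was 0.095 and 0.042, near that of all genes. Under median centring 4 of the 7 rose and 2 fell with DAXX siRNA, and 2 rose and 1 fell with non-targeting siRNA. VGF was among the higher in both.

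HPCAL4, the calcium sensor, is ENSG00000116983 at chromosome 1, 39678648 to 39691485, minus strand. With DAXX siRNA it read 26.6, 22.6, 22.7 and 22.9 RPM with crotonate, against 9.14, 8.57, 9.30 and 10.4 RPM without. With non-targeting siRNA the crotonate libraries read 27.5, 25.7, 24.1 and 28.8 RPM, against 9.60, 11.1, 10.5 and 8.89 RPM without. The crotonate libraries lay above the others, as the choice of the gene favoured, and the siRNA arms overlapped at each treatment. The log2 change was 1.34 (SE 0.096, 2.54-fold) with DAXX siRNA and 1.41 (SE 0.096, 2.65-fold) with non-targeting siRNA. The order of means was 26.6 ± 2.06 RPM (non-targeting, crotonate), 23.7 ± 1.92 (DAXX siRNA, crotonate), 10.0 ± 0.988 (non-targeting, none) and 9.34 ± 0.746 RPM (DAXX siRNA, none; SD, n = 4), and the neighbours within a treatment overlapped.

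Of 13 neuronal calcium sensors 10 were tested. With DAXX siRNA 4 rose and 1 fell, and with non-targeting siRNA HPCAL4, chosen for its rise, was the 1 that rose. Without it 3 of 9 rose with DAXX siRNA and 0 of 9 with non-targeting siRNA, where 13.0% and 13.1% of all genes did. NCALD, neurocalcin delta, read 0.540 to 0.930 RPM with DAXX siRNA and crotonate, against 0.0761 to 0.286 RPM without crotonate (log2 change 2.42, adjusted p = 0.00031). With non-targeting siRNA it read 0.529 to 1.21 RPM with crotonate, against 0.438 to 0.495 RPM without (0.85, adjusted p = 0.176). The difference between arms was not called (interaction 1.57, adjusted p = 0.995). HPCAL1, a hippocalcin-like relative, changed by 0.36 (adjusted p = 0.0385) and NCS1 by 0.24 (adjusted p = 0.0493) with DAXX siRNA, and VSNL1, visinin-like protein, by -0.40 (adjusted p = 0.00806). The NCS1 call was lost in 17 of 24 other settings (adjusted p up to 0.35, limma) and the HPCAL1 call in 9 (up to 0.144). The median log2 change of the list without HPCAL4 was 0.36 with DAXX siRNA and 0.24 with non-targeting siRNA. With median centring 2 of the 10 rose and 1 fell with DAXX siRNA, HPCAL4 among the higher. HPCAL4 was the 1 that rose with non-targeting siRNA.

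TENM3, the synaptic adhesion molecule, is ENSG00000218336 at chromosome 4, 182143987 to 182803024, plus strand, a span of 659038 bases. In DAXX siRNA cells it read 13.9, 15.4, 13.7 and 13.9 RPM with crotonate, against 6.12, 6.07, 6.41 and 7.29 RPM without. In non-targeting cells it read 16.3, 18.8, 16.7 and 18.6 RPM with crotonate, against 6.42, 6.60, 7.19 and 7.04 RPM without. Crotonate libraries were again all higher, and among them every DAXX siRNA library lay below every non-targeting one, a difference that was not called (adjusted p = 0.145, limma). The log2 change was 1.14 (SE 0.093, 2.201-fold) with DAXX siRNA and 1.37 (SE 0.093, 2.58-fold) with non-targeting siRNA. The means were 17.6 ± 1.30 RPM (non-targeting, crotonate), 14.2 ± 0.819 (DAXX siRNA, crotonate), 6.81 ± 0.363 (non-targeting, none) and 6.47 ± 0.565 RPM (DAXX siRNA, none; SD, n = 4). TENM3-AS1, an antisense gene over the start, had no read in any library.

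Of 14 teneurins and partners 5 were tested, and TENM1, TENM2 and TENM4 did not pass the filter. TENM3 and the netrin receptors UNC5A and UNC5B rose in both arms. Without TENM3, chosen for its rise, 2 of 4 rose in each arm. Of all genes, 13.0% rose with DAXX siRNA and 13.1% with non-targeting siRNA. UNC5A changed by 0.90 (SE 0.14) with DAXX siRNA and 0.52 (SE 0.14) with non-targeting siRNA, and UNC5B by 0.62 (SE 0.12) and 0.45 (SE 0.12). ADGRL1, a latrophilin that binds teneurins, had 0.24 and -0.015 and was not called. Without TENM3 the median of the 4 other genes was 0.43 and 0.38. With median centring 3 of the 5 rose with DAXX siRNA, TENM3 among them, and TENM3 was the 1 that rose with non-targeting siRNA.

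SYN1, the synaptic vesicle protein, is ENSG00000008056 at chromosome X, 47571901 to 47619857, minus strand, and was the gene with the fewest reads. With DAXX siRNA it read 1.91, 0.987, 1.33 and 2.43 RPM with crotonate, against 0.355, 0.228, 0.0851 and 0.443 RPM without. With non-targeting siRNA it read 0.852, 1.40, 1.13 and 0.793 RPM with crotonate, against 0.204, 0.338, 0.348 and 0.415 RPM without. These values rest on 30 to 118 reads per library with crotonate, against 3 to 17 without, and the groups do not overlap by treatment. It passed the 0.25 RPM minimum in 13 of 16 libraries, 5 of them among the 8 without crotonate. The log2 change was 2.74 (SE 0.43, 6.68-fold) with DAXX siRNA and 1.69 (SE 0.43, 3.22-fold) with non-targeting siRNA. On a log2(RPM + 1) scale, which understates low genes, it was 1.04 and 0.62. The means were 1.66 ± 0.638 RPM (DAXX siRNA, crotonate), 1.04 ± 0.281 (non-targeting, crotonate), 0.326 ± 0.0883 (non-targeting, none) and 0.278 ± 0.156 RPM (DAXX siRNA, none; SD, n = 4). Only the step between the treatments exceeded the SD of the groups on either side of it.

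The SYN1 span holds other annotated genes. TIMP1, a metalloproteinase inhibitor on the opposite strand inside SYN1, read 88.8 to 114 RPM with DAXX siRNA and crotonate and 70.6 to 79.0 RPM without crotonate, and 91.7 to 100.1 RPM with non-targeting siRNA and crotonate and 67.2 to 80.6 RPM without. Its log2 change was 0.39 with DAXX siRNA and 0.40 with non-targeting siRNA. Z84466.1, which shares the strand and most of the span, changed by 1.63 (adjusted p = 0.0153) and 0.70 (adjusted p = 0.328). Reads given to SYN1 cannot be told apart from theirs where the genes overlap, so its level is uncertain.

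Of 38 synapsins and synaptic vesicle genes 26 were tested, with 18 higher with DAXX siRNA and 15 with non-targeting siRNA, SYN1 among them, and none lower. Without SYN1, chosen for its rise, 17 and 14 of 25 were higher, where 13.0% and 13.1% of all genes were. SYN2, the sister synapsin, read 8.76 to 11.04 RPM with DAXX siRNA and crotonate and 4.54 to 5.92 RPM without crotonate (log2 change 0.86, adjusted p = 0.000152), and changed by 0.57 (adjusted p = 0.00584) with non-targeting siRNA. SYN3 did not pass the filter. RAB3D, a vesicle GTPase, changed by 0.97 (SE 0.069) and 0.94 (SE 0.069), CPLX2, a complexin that clamps fusion, by 1.14 (SE 0.20) and 1.7 (SE 0.20), and SYT7, a synaptotagmin calcium sensor, by 0.73 (SE 0.098) and 0.60 (SE 0.098). RAB3D and SYT7 are not confined to nerve cells. The median log2 change of the 25 was 0.50 with DAXX siRNA and 0.53 with non-targeting siRNA. For the 26, median centring gave 13 higher and 0 lower with DAXX siRNA, and 11 higher and 1 lower with non-targeting siRNA. SYN1 was among the higher in both.

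**Figure D2:**
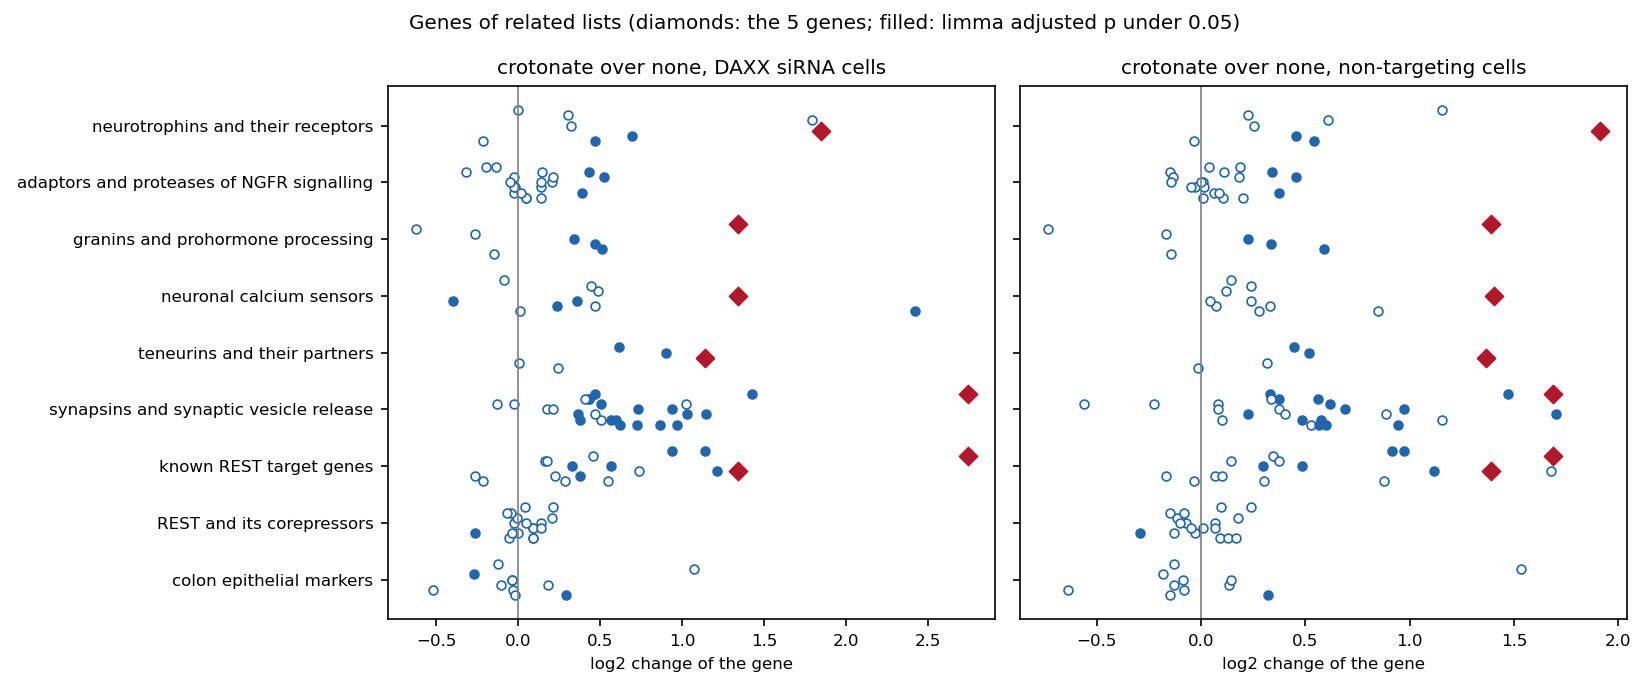
log2 change with crotonate of each tested gene, by list, in DAXX siRNA cells (left) and non-targeting cells (right). Diamonds are the 5 genes, circles other genes, and filled symbols have a limma adjusted p under 0.05. The 5 genes lie at 1.14 to 2.74 (left) and 1.37 to 1.91 (right), and of the tested genes for REST and its corepressors 1 of 18 is filled on each side.

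Counting the 5 genes, crotonate changes ran from 1.14 to 2.74 with DAXX siRNA and from 1.37 to 1.91 with non-targeting siRNA. All 5 were called higher in both arms, as 13.0% and 13.1% of all genes tested were, and the choice of the genes fixed that count. The share of all genes whose libraries separate by treatment was not counted. After median centring the ranges were 1.02 to 2.62 and 1.24 to 1.78. With DAXX siRNA the order of the changes depended on the scale, since SYN1 had 2.74 and NGFR 1.85 as deposited but 1.04 and 1.76 as log2(RPM + 1).

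How closely other genes followed was measured as the mean absolute difference of log2 values, centred on each gene over the 16 libraries, among 8987 genes at or above the median level. This distance takes in the crotonate rise for which the 5 were chosen. Nearness to each other and to other genes that rose is therefore a description and supports nothing. Among the 5, HPCAL4 and TENM3 were nearest to each other (0.115) and HPCAL4 and SYN1 farthest (0.578). HPCAL4, TENM3 and SYN1 lay below that median level, so they could not be named among the nearest genes given next. HPCAL4, for example, was 0.264 from NGFR, nearer than any gene named for NGFR. FN1, which encodes fibronectin, was among the 5 nearest genes of all 5, at 0.112 from HPCAL4, 0.142 from TENM3, 0.229 from VGF, 0.305 from NGFR and 0.557 from SYN1. NTN1, which encodes the axon guidance ligand netrin-1, was among the nearest of NGFR, HPCAL4, TENM3 and SYN1. The gene nearest to VGF was EGR1, an immediate early transcription factor (0.177), and the gene nearest to TENM3 was the long non-coding RNA UCA1 (0.114). NGFR itself was nearest to SYN1 (0.504). The other genes so named were AC080038.1 and SULF2 for NGFR, NKD1, TNFRSF6B and ABCA3 for VGF, SEPT3, UCA1 and NKD1 for HPCAL4, SEPT3 and FSD1 for TENM3, and NKD1 for SYN1, and VGF was also among the nearest of NGFR and SYN1.

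DAXX siRNA, which the choice of genes did not use, was the contrast open to a test, although its crotonate libraries also entered that choice. Without crotonate none of the 5 was called, where 0.406% of all genes were (73 genes), and none had an unadjusted p under 0.05, where 12.2% of all genes did. With crotonate none was called either, where 1.06% of all genes were (190 genes), and 1 had an unadjusted p under 0.05, where 10.9% of all genes did. limma-voom on recovered reads also called none. These comparisons share libraries with the crotonate contrasts, so only their own values are given.

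TENM3 was the gene with that p. With crotonate its log2 difference for DAXX over non-targeting siRNA was -0.30 (95% interval -0.50 to -0.11, adjusted p = 0.145, limma), lower in 4 of 4 DAXX siRNA libraries than in any non-targeting one. The other genes overlapped between the arms, and the share of all genes that separate in this way was not counted. Over the other settings tried, its adjusted p ran from 0.0754 to 0.377. Without crotonate the difference was -0.076 (-0.27 to 0.12, adjusted p = 0.777). SYN1 had 0.63 (-0.27 to 1.53, adjusted p = 0.668) with crotonate and -0.43 (-1.33 to 0.47, adjusted p = 0.725) without. VGF had 0.27 (-0.14 to 0.67) and 0.32 (-0.084 to 0.72), with adjusted p = 0.693 and 0.525.

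NGFR had -0.19 (95% interval -0.47 to 0.089, adjusted p = 0.678) with crotonate and -0.13 (-0.41 to 0.16, adjusted p = 0.742) without. HPCAL4 had -0.16 (-0.36 to 0.036, adjusted p = 0.578) and -0.10 (-0.30 to 0.10, adjusted p = 0.707). The intervals show how large a difference these 4 libraries a group leave possible, and they do not show that the arms were alike.

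The interaction, the DAXX siRNA difference with crotonate minus that without, was called for none of the 5 and for 0% of all genes (0 of 17973, with 433 at an unadjusted p under 0.05 and 0 called by limma-voom). It was 1.05 (95% interval -0.22 to 2.33) for SYN1, -0.23 (-0.50 to 0.046) for TENM3, -0.066 (-0.46 to 0.33) for NGFR, -0.064 (-0.35 to 0.22) for HPCAL4 and -0.052 (-0.62 to 0.52) for VGF, each with adjusted p = 0.995 (limma). In the related lists, PAM was higher with DAXX siRNA in crotonate (0.33, adjusted p = 0.0142), where 1.06% of all genes were called. The PAM call was lost in 3 of 24 other settings (adjusted p up to 0.0669, limma). No other gene of the neurotrophin, adaptor, granin, calcium sensor, teneurin and synaptic lists was called in either DAXX siRNA comparison.

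**Figure D3:**
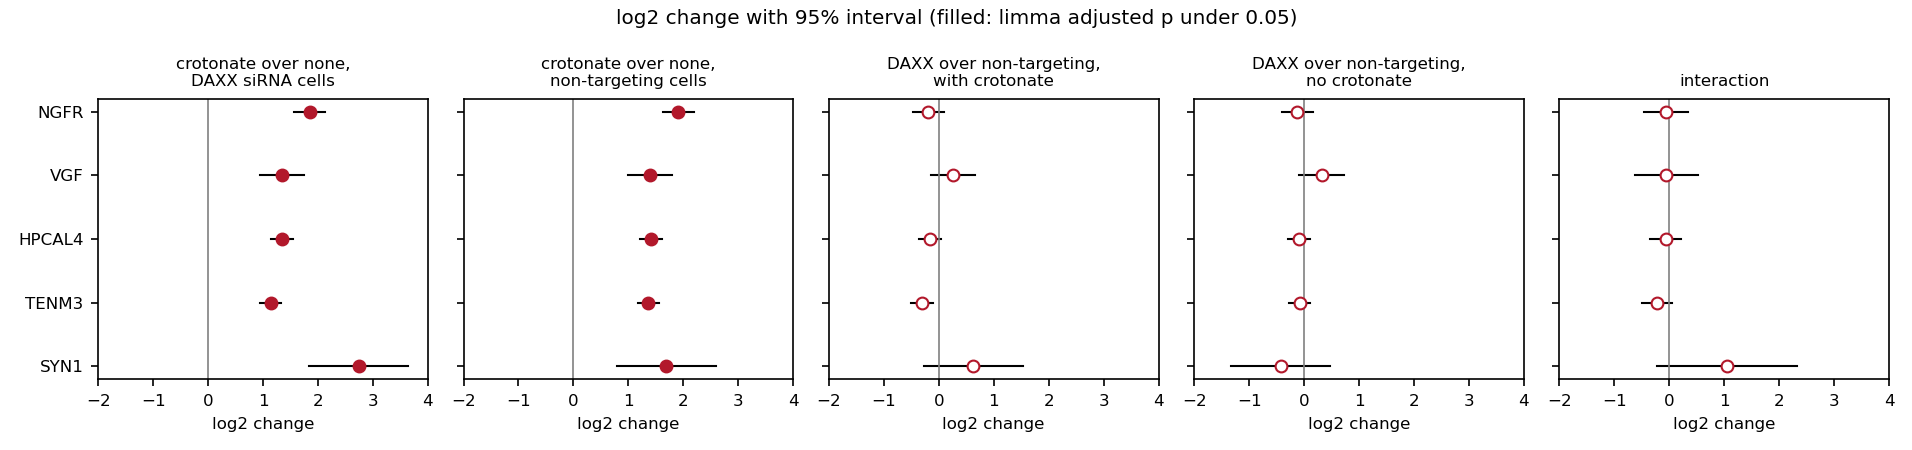
log2 change of each gene (point) with its 95% interval (line) in the 5 comparisons, from crotonate over none at the left to the interaction at the right. Filled points have a limma adjusted p under 0.05; the crotonate panels are the contrasts that chose the genes. All intervals of the DAXX siRNA panels and the interaction include 0 except TENM3 with crotonate (-0.50 to -0.11).

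REST, the repressor known to act on SYN1 and VGF, read 49.3 to 75.2 RPM with DAXX siRNA and crotonate and 55.2 to 61.1 RPM without crotonate, and 55.8 to 61.7 RPM with non-targeting siRNA and crotonate and 36.5 to 61.7 RPM without. Its groups overlapped, and it was not called (log2 change 0.089, adjusted p = 0.739, and 0.17, adjusted p = 0.473). Of the 18 tested genes for REST and its corepressors, 0 rose and 1 fell in each arm, CTDSP1, a phosphatase that stabilises REST, by 0.27 on the log2 scale with DAXX siRNA and by 0.29 with non-targeting siRNA, calls lost in 9 and 4 of 24 other settings. With median centring 1 fell with DAXX siRNA and 4 fell with non-targeting siRNA.

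Of 33 known REST target genes 17 were tested. With DAXX siRNA 8 rose and with non-targeting siRNA 7 rose, SYN1 and VGF among them in both, and none fell. Without that pair 6 and 5 of 15 rose, where 13.0% and 13.1% of all genes did. L1CAM, a neural adhesion molecule, read 26.2 to 34.1 RPM with DAXX siRNA and crotonate and 12.01 to 14.9 RPM without crotonate (log2 change 1.14, adjusted p = 2.03e-06), and changed by 0.92 (adjusted p = 2.08e-05) with non-targeting siRNA. CHRM4, a muscarinic acetylcholine receptor, changed by 1.21 and 1.12 (adjusted p = 0.000793 and 0.00167, limma). The median of the 15 was 0.38 and 0.35. Under median centring 6 of the 17 rose and 2 fell with DAXX siRNA, and 5 rose and 0 fell with non-targeting siRNA. SYN1 and VGF, chosen for their rise, are among the higher genes in both counts.

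Most defining markers of nerve cells stayed near 0. Of 22 neuronal markers, 4 had no read in any library (ELAVL2, NEFM, GAP43 and GRIA2) and 15 stayed under 1 RPM in every library. In each arm 5 of the 8 tested rose, or 4 of 7 without SYN1. Of all genes, 13.0% rose with DAXX siRNA and 13.1% with non-targeting siRNA. The summed level of the 21 other than SYN1 ran from 305 to 395 RPM with DAXX siRNA and crotonate and 237 to 279 RPM without crotonate, and from 363 to 401 RPM with non-targeting siRNA and crotonate and 266 to 343 RPM without. Most reads in that sum came from TUBB3 (144 to 232 RPM over all libraries), ENO2 (49.1 to 85.7 RPM) and MAPT (36.4 to 78.2 RPM). That is a share of reads, not divided by gene length, and the sum mainly follows these genes. NCAM1, a neural adhesion molecule, changed by 1.94 and 2.19, MAPT, which encodes tau, by 0.83 and 0.78, and MAP2, another microtubule protein, by 0.53 and 0.90. Of 17 enteroendocrine markers, 7 had no read, 4 were tested and 2 rose in each arm (against the same shares of all genes), among them SYP, the vesicle protein synaptophysin (0.93 and 0.97). Their summed level was 4.59 to 6.39 RPM with DAXX siRNA and crotonate and 2.61 to 3.62 RPM without crotonate, and 5.09 to 6.50 RPM with non-targeting siRNA and crotonate and 2.52 to 3.79 RPM without. With median centring 4 neuronal and 2 enteroendocrine markers rose with DAXX siRNA, and 5 and 1 with non-targeting siRNA. SYN1 was among the neuronal ones in both.

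Of 12 neural crest and Schwann cell markers, which include NGFR, 7 were tested, and their summed level without NGFR was 99.1 to 105 RPM with DAXX siRNA and crotonate and 94.5 to 100.2 RPM without crotonate. With non-targeting siRNA it was 101 to 111 RPM with crotonate and 89.7 to 101 RPM without. NGFR was the 1 that rose with DAXX siRNA, and NGFR and PMP22, a myelin protein (0.25), rose with non-targeting siRNA. Their defining factor SOX10 stayed below 0.15 RPM (highest 0.146 RPM). Of 10 fibroblast markers, 3 were tested, and ACTA2, smooth muscle actin, rose in both arms (0.46 and 0.47, calls lost in 8 and 4 of 24 other settings) and COL1A1, a collagen chain, with DAXX siRNA (0.66), and DCN and LUM had no read. Their sum was 23.4 to 32.2 RPM with DAXX siRNA and crotonate and 15.01 to 22.2 RPM without crotonate, and 22.6 to 27.9 RPM with non-targeting siRNA and crotonate and 14.7 to 24.8 RPM without. Of 10 leukocyte markers 4 were tested and none was called in either arm, and their sum stayed between 8.09 and 14.1 RPM. Of 11 tested colon epithelial markers, CDH1, E-cadherin, rose in both arms (0.29 and 0.32) and EPCAM, an epithelial adhesion molecule, fell with DAXX siRNA (-0.27). As deposited, 13.0% of all genes rose with DAXX siRNA and 13.1% with non-targeting siRNA. Median centring turned the colon counts to 0 higher and 3 lower in each arm. The colon sum was 4363 to 5242 RPM with DAXX siRNA and crotonate and 4756 to 5219 RPM without crotonate, and 4036 to 4251 RPM with non-targeting siRNA and crotonate and 4250.0 to 5016 RPM without. The part of such shifts in the levels of the 5 genes was not tested, and in bulk RNA fewer cells of a type and less RNA per cell cannot be told apart.

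In the ChIP table the signal is the reads in a region after 1 scaling factor per library, with the input in a column of its own. NGFR had 1 region listed under its symbol, HPCAL4 2, TENM3 2 and SYN1 3. VGF had none, and its annotated span lies inside a region listed under AP1S1, shown here by position and not counted. Libraries 1A and 1B of the groups without crotonate differed by about as much as read sampling gives (chi-square over degrees of freedom 1.01 with DAXX siRNA and 1.01 with non-targeting siRNA, against 1.04 to 1.38 for other pairs), and means below count them as 1 sample (n = 2 with crotonate, n = 3 without).

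Regions differed in where they lay. The NGFR region, chr17:49498801-49519050, was 20250 bases wide, wider than 98.9% of all regions (median width 1800 bases), and began 3.51 kb after the annotated start. HPCAL4 region 2, chr1:39686101-39693000, covered the start, with all 250 printed bases inside it, and region 1, chr1:39682051-39685650, lay within the gene. HPCAL4 region 2 also held the annotated start of PPIE (39692182, plus strand), so its signal cannot be assigned to HPCAL4 alone. RNA of PPIE was not called for crotonate (adjusted p = 0.182 with DAXX siRNA and 0.371 with non-targeting siRNA, limma). TENM3 region 1, chr4:182386351-182387250, and region 2, chr4:182448151-182449050, lay 242 and 304 kb inside the gene, and region 2 held all 250 bases printed for the downstream RefSeq start. The SYN1 regions, chrX:47574901-47575200, chrX:47581951-47582250 and chrX:47583001-47584050, lay 35.8 to 45.0 kb inside the gene, with region 2 beside TIMP1 and region 3 within it. The region over VGF, chr7:101152651-101165700, covered the VGF start, and it held 131 of the 250 printed VGF bases while the next region, listed under NAT16, held the other 119. Exons and introns were not analysed here.

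**Figure D4:**
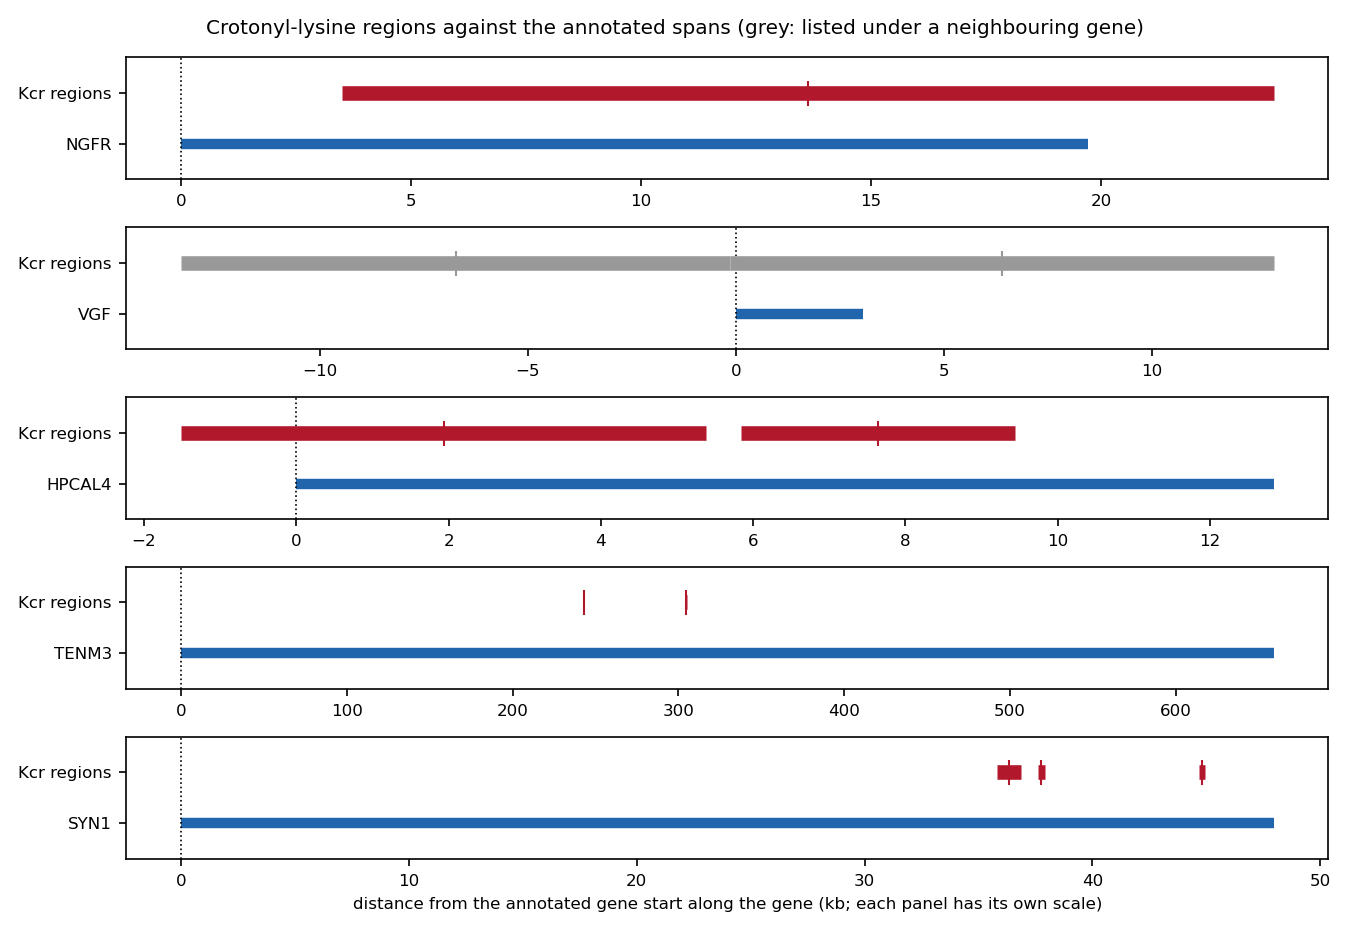
Kcr regions (thick bars, upper line of each panel, with a tick at the centre) against the annotated gene span (blue) by distance from the gene start in kb along the gene, with a scale per panel. Red regions are listed under the gene, grey regions under a neighbour. The start is inside a region for VGF and HPCAL4, and the nearest region begins 3.51 kb inside NGFR and 35.8 kb inside SYN1.

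The NGFR region read 586 and 585 scaled reads with DAXX siRNA and crotonate, against 688, 696, 635 and 582 without crotonate (libraries 1A, 1B, 2 and 3), and 559 and 535 with non-targeting siRNA and crotonate, against 781, 762, 606 and 630.0 without; the input had 351. Crotonate libraries with non-targeting siRNA lay below all 4 without crotonate, and with DAXX siRNA they lay within the range. The mean log2 signal over input was 0.74 and 0.86 with DAXX siRNA with and without crotonate, and 0.64 and 0.93 with non-targeting siRNA, near or below the medians of all regions (0.85, 1.01, 0.80 and 1.00 in that order of groups). The region over VGF had 1.17, 1.46, 1.05 and 1.47, above those medians, and the HPCAL4 region at the start 0.43, 0.73, 0.53 and 0.57, below them. SYN1 region 2 had no input read, so no ratio is given for it.

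The region over VGF read 390 and 259 scaled reads with DAXX siRNA and crotonate, against 395, 374, 442 and 365 without, and 339 and 259 with non-targeting siRNA and crotonate, against 434, 519, 380.0 and 340.2 without, with 144 in the input. Its non-targeting crotonate libraries lay below all 4 without crotonate, by little for the higher one. The HPCAL4 region at the start read 131 and 96.4 scaled reads with DAXX siRNA and crotonate, against 151, 137, 150.3 and 126 without, and 118 and 126 with non-targeting siRNA and crotonate, against 158, 168, 117 and 98.3 without, with 84.7 in the input. The groups overlapped in both arms. HPCAL4 region 1 read 55.04 and 49.5 with DAXX siRNA and crotonate, against 59, 89.8, 67.4 and 50.1 without, and 55.2 and 47.6 with non-targeting siRNA and crotonate, against 76.1, 79.7, 73.6 and 55.8 without, with 39.2 in the input. Its crotonate libraries were the lowest with non-targeting siRNA, the nearest pair differing by little, and overlapped the others with DAXX siRNA. TENM3 region 2, at the downstream start, read 14.6 and 19.5 with DAXX siRNA and crotonate, against 18.0, 20.9, 11.2 and 22.4 without, and 16.2 and 7.94 with non-targeting siRNA and crotonate, against 20.9, 28.1, 19.1 and 23.9 without, with 10.6 in the input. With non-targeting siRNA its crotonate libraries were the lowest, on 12 and 7 reads. The SYN1 regions held 2 to 20 reads in each ChIP library and 0 to 10 in the input, too few to read a difference between groups.

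**Figure D5:**
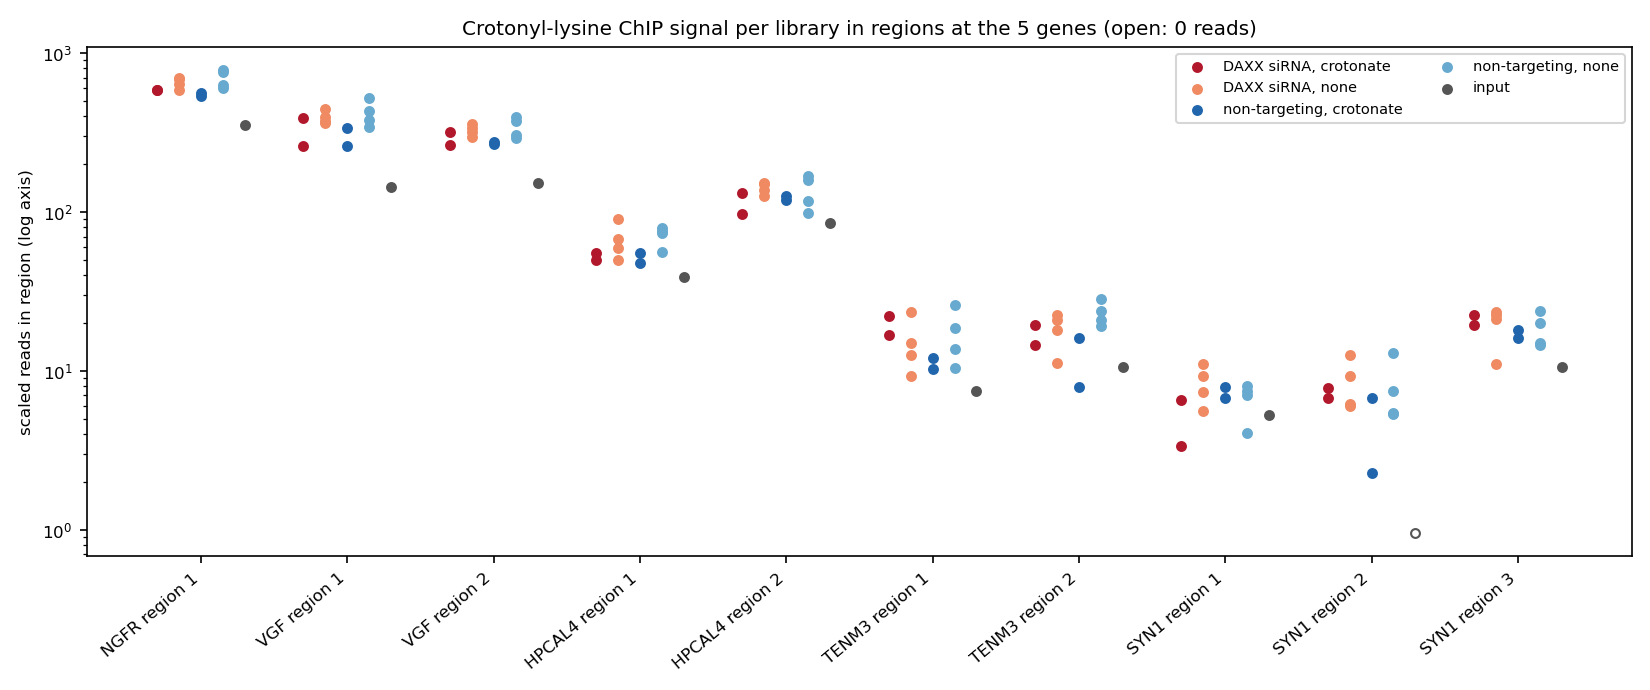
Scaled reads (log axis) of each ChIP library and the input in the 8 regions listed under the genes and in the regions over and next to VGF. Points are libraries, by group from DAXX siRNA with crotonate at the left to the input at the right of each region, and an open point marks 0 reads. NGFR region 1 reads 535 to 781 in the ChIP libraries against 351 in the input.

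None of the 8 regions was called for crotonate. With non-targeting siRNA 97 of all 49916 regions were called, every one lower (0.194%), and 3 of the 8, NGFR, HPCAL4 region 1 and TENM3 region 2, had an unadjusted p under 0.05, where 19.0% of all regions did. With DAXX siRNA 3 regions of the table were called (0.00601%), and 0 of the 8 had such a p, where 10.9% of all regions did. This fit takes 1A and 1B as separate libraries, so its n is above the number of distinct samples and its intervals are too narrow and its p-values too small. limma-voom called none of the 8, and with 1A and 1B averaged no region of the table was called. The count with non-targeting siRNA ran from 1 (without DAXX siRNA library 1A) to 1885 (without non-targeting library 3) as single libraries were left out. With non-targeting siRNA 7 of the 8 had a log2 change below 0 (range -1.01 to 0.18), where the median of all regions was -0.23, and with DAXX siRNA 6 did (range -0.78 to 0.44), where that median was -0.17.

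The NGFR region changed by -0.34 (95% interval -0.60 to -0.074, adjusted p = 0.155, limma) with non-targeting siRNA and by -0.15 (-0.41 to 0.12, adjusted p = 0.698) with DAXX siRNA. With 1A and 1B averaged it had -0.28 (adjusted p = 0.381) with non-targeting siRNA, HPCAL4 region 1 -0.42 (adjusted p = 0.409), TENM3 region 2 -0.98 (adjusted p = 0.279) and the region over VGF -0.42 (adjusted p = 0.312, limma). TENM3 region 2 had -1.01 (-1.71 to -0.30, adjusted p = 0.119) and -0.054 (-0.76 to 0.65, adjusted p = 0.969). HPCAL4 region 1 had -0.46 (-0.90 to -0.029, adjusted p = 0.231) and -0.32 (-0.75 to 0.12, adjusted p = 0.597). The start region of HPCAL4 had -0.11 (-0.49 to 0.26, adjusted p = 0.785) and -0.32 (-0.69 to 0.050, adjusted p = 0.525). The region over VGF, outside the 8, had -0.48 (-0.80 to -0.16, adjusted p = 0.105) and -0.31 (-0.63 to 0.014, adjusted p = 0.481). It was called with non-targeting siRNA when non-targeting library 3 was left out (-0.57, adjusted p = 0.0403, limma). HPCAL4 region 2 with non-targeting siRNA, and NGFR and TENM3 region 2 with DAXX siRNA, lay nearer 0 than the median of all regions, and changed sign under scalings that shift all regions. RNA of NGFR, TENM3 and HPCAL4 was higher in crotonate libraries. The signal of their regions was not called higher in either arm, but neither was that of any other region (0 of all 49916 in each arm). That signal is relative, with 1 scaling factor per library, so a change in total Kcr per cell was not measured. RNA and ChIP came from separate libraries and were not tested against each other.

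None of the 8 regions was called for DAXX siRNA. Without crotonate their log2 differences ran from -0.38 to 0.32 and with crotonate from -0.64 to 0.89, with 0 of 8 at an unadjusted p under 0.05 in each and 0% of all regions called. The interaction ran from -0.97 to 0.98, again with 0 of 8 under 0.05 and 0% called, and limma-voom called none in the 3 comparisons.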

How the data were processed

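RNA-seq of 16 HCT116 libraries and anti-Kcr ChIP-seq of 12 libraries with 1 input were analysed. Per the submitters' processing notes, reads were trimmed with Trim Galore 0.6.2 (RNA) or 0.6.5 (ChIP) and cutadapt 2.3, aligned to GRCh38 with HISAT2 2.2.1 (RNA) or Bowtie2 (ChIP), and MACS was used for ChIP. The deposited values are log2 values by the authors: reads per gene scaled per library, and reads per ChIP region with 1 factor per library and the input not subtracted. Not given in the sources used here: the strand setting, the counting step and how regions were combined. For RNA and ChIP alike, 100% of values came out as whole reads (within 0.01 read), with 0 reads entered as 0.9.

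Groups came from the labels. Genes with at least 0.25 RPM in 4 libraries were tested on the deposited log2 values with limma 3.58.1 (R 4.3.3, trended prior variance, 1 coefficient per group, Benjamini-Hochberg over all genes or regions, threshold 0.05), two-sided, after a check on simulated data. The alternatives were other filters, scalings and groups, log2(RPM + 1), limma-voom on recovered reads (with library totals, since TMM was not applied), a replicate block and leaving out each library. Few reads limit SYN1 and the TENM3 and SYN1 regions.

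The 5 genes, the gene lists and the tests were chosen with earlier results of these data known. The text names the 5 genes, members of their families, REST, up to 3 called genes each way per other list in a crotonate comparison (2 in others), the 5 genes most alike, and the regions listed under the 5. Promoter windows came from RefSeq (GRCh38.p14). Replicate numbers were not taken to pair the libraries, because not every same-numbered pair correlated above 0.1. Results for some listed genes are not reported here.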

Additional observations from a re-analysis of the deposited data

Results flagged for a closer look

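In 2 of the 20 groups of 4 RNA libraries examined for the 5 genes, 1 library stood apart from the rest by Dixon's ratio (gap over range, at its 95% critical value), and chance gives about 1 in 20 groups. HPCAL4, the calcium sensor, read 26.6 RPM in DAXX siRNA library 1 with crotonate, where the other libraries of the group read 22.6 to 22.9 RPM (ratio 0.936). TENM3, the teneurin, read 15.4 RPM in DAXX siRNA library 2 with crotonate, where the others read 13.7 to 13.9 RPM (ratio 0.927). Both libraries lay above their group, so leaving either value aside would lower the DAXX siRNA mean.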

How the results depend on the processing

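Over 24 RNA settings the 5 genes were called 5 times in each crotonate comparison and 0 times in the DAXX siRNA comparisons and the interaction, and over 17 Kcr settings none of the 8 regions was called. All genes called for DAXX siRNA without crotonate numbered 73, but 29 with only the groups compared in the fit and 39 to 87 as single libraries were left out (39 without DAXX siRNA library 3, 46 without DAXX siRNA library 1 or non-targeting library 1). With crotonate they numbered 190, and 95 to 333 (333 without non-targeting library 2; 95 to 117 without DAXX siRNA library 2 or any of the 4 non-targeting libraries with crotonate). Regions called for crotonate with non-targeting siRNA numbered 97, but 0 with 1A and 1B averaged, 4 with median centring, 2 with quantile scaling, 4 with limma-voom and 1 to 1885 as libraries were left out; with DAXX siRNA they numbered 3, but 0 with averaging, median centring or limma-voom and 0 to 1041 (1041 without DAXX siRNA library 2 with crotonate), and leaving out 11 and 8 of the 12 libraries moved these counts over 1.5 times. For DAXX siRNA in crotonate they ran from 0 to 7 and for the interaction from 0 to 1. The share of higher genes moved to 46.2% and 58.5% (non-targeting) and 50.5% and 63.0% (DAXX siRNA) under median centring and quantile scaling.

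Of 45 results for the genes and regions, 11 changed sign somewhere, none of them called. Leaving out libraries gave -0.73 to 0.061 for SYN1 (DAXX siRNA, no crotonate), and interactions of -0.18 to 0.081 for NGFR and -0.23 to 0.10 for VGF. For crotonate in Kcr with non-targeting siRNA it gave -0.033 to 0.30 for SYN1 region 1 and -0.17 to 0.067 for SYN1 region 3; with DAXX siRNA it gave -0.27 to 0.16 for TENM3 region 2, -0.30 to 0.056 for SYN1 region 2 and -0.089 to 0.27 for SYN1 region 3. Averaging gave 0.021 for SYN1 region 3; median centring gave 0.083 for HPCAL4 region 2, 0.13 for SYN1 region 3 and 0.091 for TENM3 region 2; quantile scaling gave 0.17, 0.092 and 0.065 for the same regions, 0.080 for NGFR and 0.036 for VGF region 2; limma-voom gave 0.14, 0.19, 0.093, 0.023 and 0.023 in that order and 0.065 for SYN1 region 2. The region over VGF was called with non-targeting siRNA without non-targeting library 3 (-0.57, adjusted p = 0.0403, limma). Of 56 called results of named genes 33 held in every setting, 23 lost the call in at least 1 and 0 changed sign. The causes were not tested.

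Deviations of same-numbered libraries correlated at -0.82 to 0.74 (median 0.25) in RNA, against a median of -0.090 for other numbers, and at 0.017 to 0.25 (median 0.12) in Kcr, against -0.25 to 0.10 (median -0.058). Same-numbered Kcr libraries were thus higher on the whole, a hint from the data that falls short of the rule for pairing. The replicate block gave 117 genes for DAXX siRNA without crotonate, 1408 and 9 regions for crotonate (non-targeting and DAXX siRNA), 0.050 for HPCAL4 region 2, 0.064 for TENM3 region 2 and a call for the region over VGF (-0.40, adjusted p = 0.0276, limma), and it changed no call of the 5 genes or 8 regions.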
